A study of Mus musculus with 2 samples.

Results

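The genes of glycolysis, of pyruvate handling and of the citric acid cycle were looked up in a map of YY1 binding in mouse muscle stem cells (MuSCs). The set holds 45 genes, named by their symbols, and covers glucose and lactate transport, the enzymes of glycolysis, lactate dehydrogenase, the pyruvate dehydrogenase complex and its kinases, the citric acid cycle and the hypoxia factor Hif1a. A gene was counted as bound where the summit of a YY1 peak, its point of highest signal, lay within 1000 bp of one of its annotated transcript start sites. By this rule, 15 of the 45 genes were bound. Among all 21938 protein-coding genes, 4119 were bound.

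YY1 is a zinc finger protein that binds DNA at a short motif with the core ATGGC, often close to the start sites of widely expressed genes. Glycolysis splits glucose to pyruvate in the cytoplasm, and pyruvate then either leaves as lactate or enters mitochondria, where the pyruvate dehydrogenase complex turns it into acetyl-CoA for the citric acid cycle. Quiescent MuSCs are known to rely largely on mitochondrial oxidation and to raise glycolysis when they activate.

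The data are 1 list of YY1 ChIP-seq peaks, a method that recovers protein-bound DNA with an antibody and sequences it. The study's methods describe MuSCs freshly isolated from Ctrl mice of the mdx strain, which lacks dystrophin, and pooled over animals. In this study, Ctrl mice carried unmodified Yy1 (Yy1+/+) with Pax7CreERT2, an inducible Cre driven by the MuSC gene Pax7, and the R26YFP reporter, on the mdx background. The sample labels instead speak of WT MuSC and of cells grown in culture, and the sources used here give neither the age of these mice nor whether they received tamoxifen. There was 1 YY1 library and 1 background library, which is called input in the labels and IgG in the methods. There were no replicates, so the spread between animals is unknown and no test between conditions was possible.

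The list holds 4681 peaks with a fold enrichment of 1.49 to 14.4 and a median of 5.10. This fold is not the plain quotient of fragments and local background, since the peak caller adds 1 to both numbers before dividing, and all folds below are of this kind. Its values correspond to a depth of about 13358000 fragments, which here means units of the peak caller's pileup. The study describes the library as paired-end, and the number of uniquely mapping reads it gives matches this depth. Whether both reads of a pair were counted in that number is not given in the sources used here. If they were, the counts are not independent and the intervals below are too narrow. At the most frequent local background, 1.54 fragments, the weakest listed summit held 8 fragments, so a gene described as not bound is one without a peak above this limit, not one shown to lack YY1. Of 5 genes looked up as marks of MuSCs, Pax7 had a summit in its window (2.65-fold, 117 fragments over a background of 43.5, 703 bp after the start site), and Myf5, Myod1, Vcam1 and Itga7 had none. The background at Pax7, the gene that also drives the Cre allele of these mice, was far above the 1.54 to 3.95 at the 15 bound genes, and the cause was not tested. None of the 4 genes Ptprc, Adgre1, Pdgfra and Pecam1, which mark blood, macrophage, mesenchymal and endothelial cells, had one. Peak lists do not measure expression, so this lookup does not show which cells were present.

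The bound share was 33.3% of the set, against 18.8% of all protein-coding genes. Start sites differ in base composition, and YY1 peaks followed it across the genome. A start site was called CpG-rich where the surrounding 500 bp to each side held at least 50% G and C and a ratio of observed to expected CpG of at least 0.6. Of the protein-coding genes with such a start site 36.2% were bound, against 1.92% of the others. The set holds 34 genes with a CpG-rich start site (75.6%), whereas 49.2% of protein-coding genes have one. Of these 34 genes, 14 were bound (41.2%). Of the 11 others, 1 was bound, Pfkm. Within genes of CpG-rich start sites the comparison is thus 41.2% against 36.2%, closer than the 33.3% against 18.8% over all genes, and a further test was not made.

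The bound genes were counted by step of the pathway. The citric acid cycle, counted with the cytoplasmic isozymes Idh1 and Mdh1, had 6 bound genes of 14 and the transporters 2 of 4. Upper and lower glycolysis each had 2 of 8, and the pyruvate dehydrogenase complex and its kinases each had 1 of 4. Neither of the 2 lactate dehydrogenase genes was bound, and Hif1a was bound. All 18 genes of the pyruvate dehydrogenase complex and the cycle had a CpG-rich start site, and 7 of them were bound (38.9%). Of the 18 enzymes of glycolysis and lactate formation, 4 were bound (22.2%), and 9 had a CpG-rich start site, of which 3 were bound (33.3%). All coding genes with such a start site had a share of 36.2%. At a q-value limit of 0.01, Dld, Idh3g, Suclg1 and Sucla2 were lost, which left 3 of 18 genes of the complex and the cycle (16.7%), while the glycolytic enzymes kept 4 of 18 (22.2%), so that the order of both groups turned over. The share was then 17.4% of all coding genes and 33.7% of those with a CpG-rich start site. Of the 9 glycolytic enzymes with such a start site, 3 remained (33.3%). The groups are too small to read an order from these shares, and no test between them was made.

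**Figure D1:**
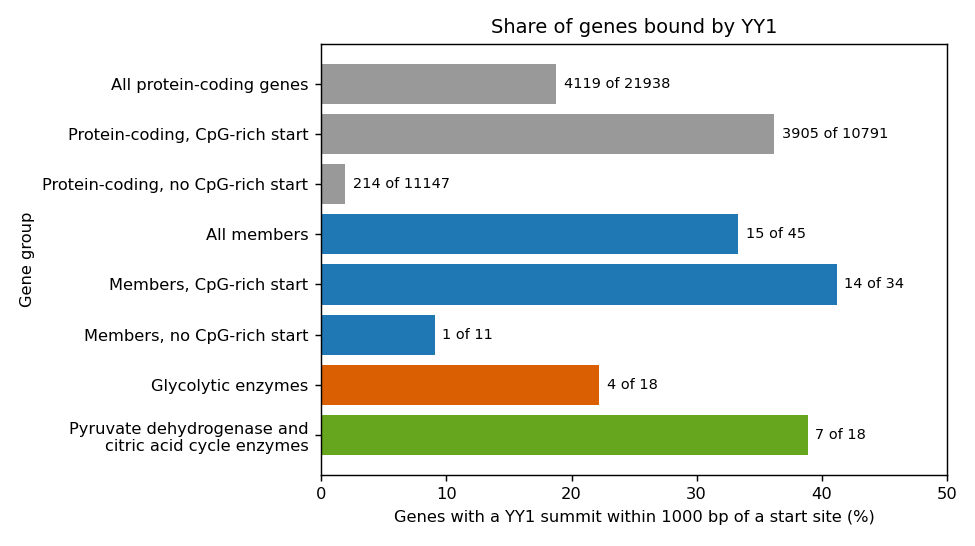
Percent of genes with a YY1 summit within 1000 bp of a start site (bars from 0), for protein-coding genes (grey), the 45 genes (members, blue), the glycolytic enzymes with lactate dehydrogenase (orange) and the enzymes of the pyruvate dehydrogenase complex and the cycle (green), with the number of bound genes beside each bar. Bars of genes with a CpG-rich start site stand at 36.2% for all coding genes and at 41.2% for the set, and those of genes without one at 1.92% and 1 of 11.

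The 15 bound genes had moderate peaks. Their fold enrichment ran from 2.83 to 7.04 with a median of 4.37, against a median of 5.13 for all bound protein-coding genes, and 10 of the 15 lay below that median. Summits held 9 to 21 fragments (median 14, against 15 for bound coding genes) over a local background of 1.54 to 3.95 fragments. The background itself rested on few reads. At 8 of the 15 genes it was a whole multiple of 0.988 to within 0.001 (2, 3 or 4 times), which matches that number of scaled background fragments, and at 4 more it stood at the lowest level of the list. Over all peaks of the list, 37.9% had such a multiple and 29.3% stood at the lowest level. With counts this small, the 95% exact Poisson interval of the fragment number gave fold intervals that overlapped in all 105 pairs of bound genes. Overlap of 2 intervals is not a test of their difference. No pair was tested directly, so no ranking by strength of binding is given. These intervals cover the counting error of the YY1 library only and leave out that of the background.

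**Figure D2:**
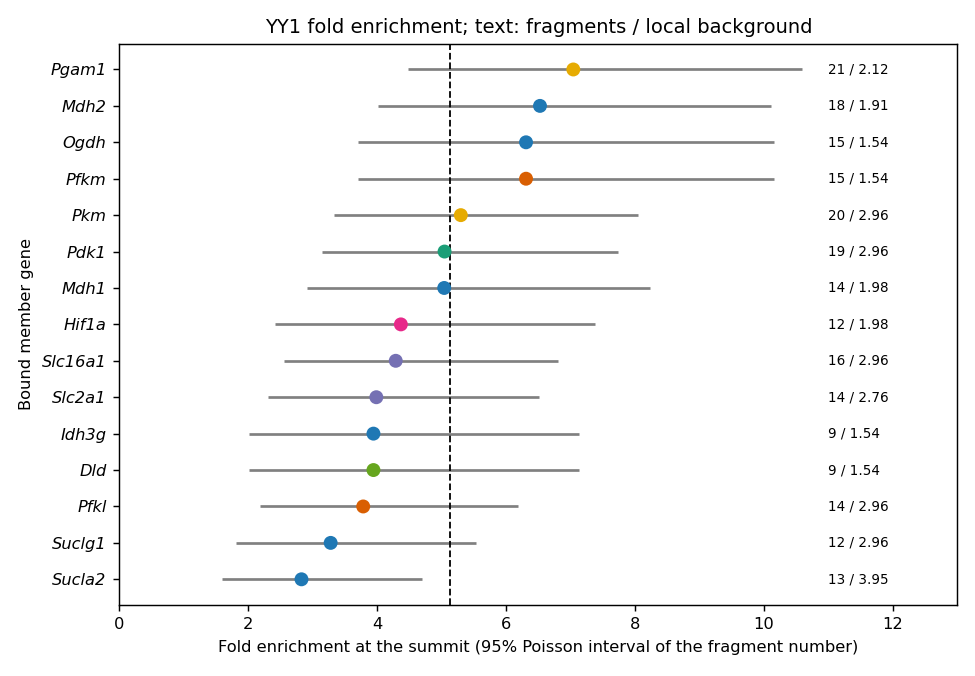
Fold enrichment of YY1 over the local background at the summit of the 15 bound genes, ordered by value, with bars for the 95% exact Poisson interval of the fragment number and, as text, the fragments and the local background. Pgam1 is highest at 7.04 and Sucla2 lowest at 2.83, all intervals overlap, and 5 genes lie above the dashed line, the median of bound coding genes (5.13).

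Summits lay close to start sites. The median distance was 127 bp, against 107 bp for bound coding genes. Of the 15 summits, 7 were within 100 bp of the start site (48.0% of bound coding genes had one this close) and 11 within 200 bp (72.1% of bound coding genes). Counted along the direction of transcription, 10 summits fell after the start site and 5 before it, while 49.1% of bound coding genes had theirs after it. Against the transcript of the nearest start site, 6 summits lay in a 5′ UTR, 4 in intron 1 and 5 upstream, of which that of Hif1a also lay in an intron of a longer transcript of the same gene. The largest distances inside the limit of 1000 bp were 753 bp at Pfkm and 558 bp at Mdh1, and the nearest summit outside it lay 10.3 kb from Eno3, so no gene stood near the limit on its outer side.

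**Figure D3:**
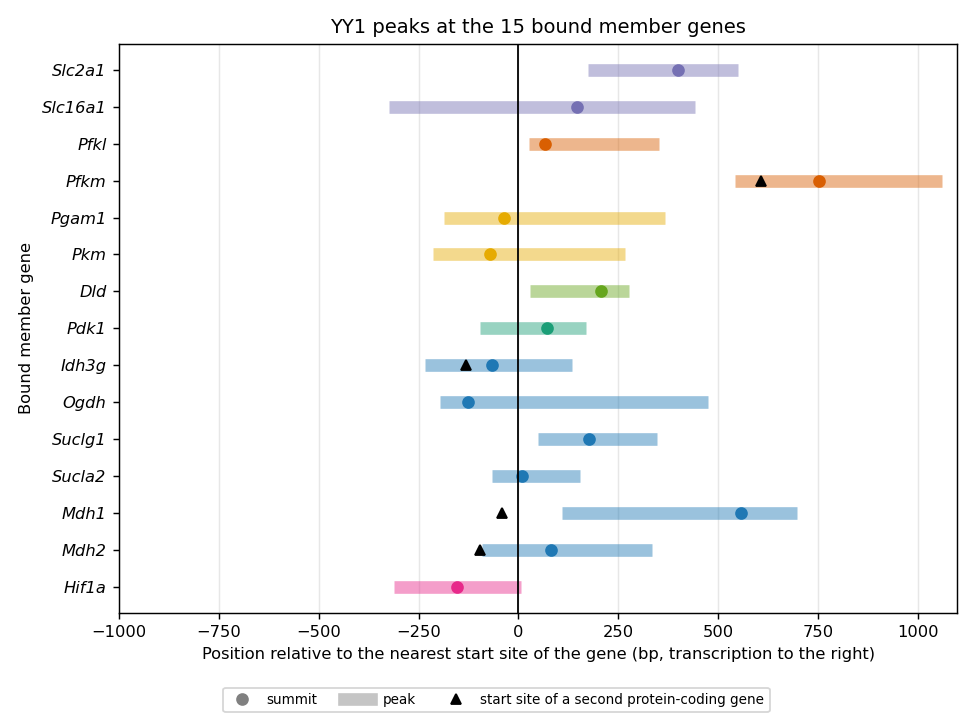
Position of each YY1 peak (bar) and its summit (dot) relative to the nearest start site of the 15 bound genes in bp, with transcription to the right; colours mark the pathway role and triangles the start site of a second protein-coding gene. Most dots sit within 200 bp of the line at 0, and the dot of Pfkm, at 753 bp, sits nearer to the triangle than to the line.

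Among the transporters, YY1 bound Slc2a1 and Slc16a1. Slc2a1 encodes GLUT1, the glucose carrier of many proliferating cells. Its peak at chr4:119108885-119109262 (GRCm38, the mm10 sequence) held 14 fragments over a background of 2.76, a fold of 3.99 (2.30 to 6.51), with the summit 400 bp after the start site in intron 1. Slc16a1 encodes MCT1, which moves lactate and pyruvate across the cell membrane. Its peak, chr3:104638343-104639110, was the widest of the set at 768 bp and held 16 fragments over 2.96, a fold of 4.29 (2.56 to 6.81), with the summit in the 5′ UTR. The insulin-regulated carrier gene Slc2a4 (GLUT4) and the lactate exporter gene Slc16a3 (MCT4), which muscle fibres use, had no peak, and their nearest summits were 26.6 kb and 15.6 kb away.

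In upper glycolysis, YY1 bound Pfkl and Pfkm, but not Pfkp, of the 3 phosphofructokinase genes, whose products make the committed step. At Pfkl, named for its liver form, the peak chr10:78009454-78009781 held 14 fragments over 2.96, a fold of 3.78 (2.18 to 6.18), 68 bp after the start site. At Pfkm, the muscle form, the peak chr15:98093188-98093706 held 15 fragments over 1.54, a fold of 6.31 (3.71 to 10.2), and its summit was 753 bp after the nearest of 3 start sites. That summit was nearer to 2 other genes. It lay 146 bp from the start site of Senp1, a SUMO protease gene on the opposite strand, and 114 bp from that of the antisense transcript Gm26513. It was 15.1 kb from the third Pfkm start site at position 98108466. Among the 8 genes of this group, the 6 without a peak were Hk1, Hk2, Gpi1, Pfkp, Aldoa and Aldoc. Hexokinases Hk1 and Hk2, which trap glucose in the cell, had their nearest summits 69.9 and 120 kb away.

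In lower glycolysis, the bound genes were Pgam1 and Pkm. Pgam1, the phosphoglycerate mutase of most tissues, had the highest fold of the 15 genes. Its peak chr19:41911736-41912290 held 21 fragments over 2.12, a fold of 7.04 (4.48 to 10.6), 37 bp before the start site. In this peak 15 of 51 stretches of 50 bases occur more than once in the genome, from 43 to 262 bp after the start site, and the summit lay outside them. Over all peaks of the list 5.73% of stretches did so, and the peaks of the 14 other bound genes held none. Pkm encodes pyruvate kinase, which makes pyruvate and ATP. Its peak chr9:59656155-59656636 held 20 fragments over 2.96, a fold of 5.30 (3.33 to 8.05), 72 bp before the start site. Tpi1, Gapdh, Pgk1, Pgam2, Eno1 and Eno3 had no peak. They encode enzymes of the steps between the splitting of the hexose and the making of phosphoenolpyruvate, where Pgam1, which was bound, also acts. Ldha and Ldhb, whose products interconvert pyruvate and lactate, had none either, with nearest summits 49.8 and 162 kb away.

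Muscle has paired isozymes for many of these steps, a form of many tissues and a form of muscle fibres or another tissue. Of 8 such pairs, YY1 bound both genes of 1 (Pfkl and Pfkm), 1 gene of 3 and neither of 4. That is 5 of 16 genes, to be read against the 18.8% of all coding genes and the 36.2% of those with a CpG-rich start site. In the 3 split pairs the bound gene was Slc2a1 and not Slc2a4, Slc16a1 and not Slc16a3, and Pgam1 and not Pgam2. Slc2a4 and Pgam2 have no CpG-rich start site, whereas Slc16a3 and the 3 bound genes have one. The pairs without a peak were Hk1 and Hk2, Aldoa and Aldoc, Eno1 and Eno3, and Ldha and Ldhb, of which Hk2, Aldoa, Eno1 and Ldha have a CpG-rich start site and their partners do not. Base composition thus differs within most pairs, and its part in the split was not tested.

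Of the 4 genes of the pyruvate dehydrogenase complex in the set YY1 bound 1, and of the 4 kinase genes 1. Dld encodes dihydrolipoamide dehydrogenase, a subunit that the 2-oxoglutarate dehydrogenase complex also uses. Its peak chr12:31351176-31351423 held 9 fragments over 1.54, a fold of 3.94 (2.02 to 7.13). Pdk1 encodes a kinase that switches the complex off. Its peak chr2:71873129-71873394 held 19 fragments over 2.96, a fold of 5.05 (3.14 to 7.74), 73 bp after the start site in the 5′ UTR. The other subunit genes of the set, Pdha1, Pdhb and Dlat, and the kinase genes Pdk2, Pdk3 and Pdk4 had no peak. Pdha1 and Pdk3 are on the X chromosome, as are Pgk1 and Idh3g. That chromosome held 34 of the 4681 peaks (0.726%), and 2.32% of its protein-coding genes were bound, so the single bound gene of these 4, Idh3g, is to be read against that share.

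In the citric acid cycle with these isozymes, the 6 bound genes were Idh3g, Ogdh, Suclg1, Sucla2, Mdh1 and Mdh2. Idh3g encodes the gamma subunit of the NAD-dependent isocitrate dehydrogenase. Its peak chrX:73786762-73787131 held 9 fragments over 1.54, a fold of 3.94 (2.02 to 7.13). The summit lay between 2 start sites on opposite strands, 67 bp from that of Idh3g and 64 bp from that of Ssr4, a gene of the protein translocation machinery. Ogdh, the catalytic subunit of 2-oxoglutarate dehydrogenase, had a peak at chr11:6291437-6292109 with 15 fragments over 1.54, a fold of 6.31 (3.71 to 10.2), 127 bp before the nearest of its 4 start sites. Dld, described above, is shared by this complex, while Dlst, its succinyltransferase, and the isocitrate dehydrogenase subunits Idh3a and Idh3b had no peak.

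Succinyl-CoA ligase consists of an alpha subunit, Suclg1, with either of 2 beta subunits, Sucla2 for ADP and Suclg2 for GDP. Suclg1 and Sucla2 were bound. The peak of Suclg1, chr6:73248430-73248729, held 12 fragments over 2.96, a fold of 3.28 (1.82 to 5.54). That of Sucla2, chr14:73552700-73552921, held 13 fragments over 3.95, a fold of 2.83 (1.60 to 4.69), 8 bp after the start site. It was the only one of the 15 peaks with a q-value over 0.05 (0.0763), and only 0.413% of bound coding genes had a lower fold. This low fold depended on the local background: with the lowest background of the list in its place, Sucla2 came to 5.52 and Suclg1 to 5.13, above Dld and Idh3g at 3.94. The nearest summit to Suclg2 was 993 kb away.

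Both malate dehydrogenase genes were bound. Mdh1, the cytoplasmic enzyme of the malate shuttle, had a peak at chr11:21571496-21572084 with 14 fragments over 1.98, a fold of 5.04 (2.91 to 8.23), in intron 1. Mdh2, the mitochondrial enzyme of the cycle, had one at chr5:135778388-135778816 with 18 fragments over 1.91, a fold of 6.53 (4.01 to 10.1), 81 bp after the start site. Each start site has a second gene beside it on the opposite strand, Wdpcp 42 bp from that of Mdh1 and Styxl1 95 bp from that of Mdh2. Cs (citrate synthase), Fh1 (fumarase) and the NADP-dependent isocitrate dehydrogenases Idh1, of the cytoplasm, and Idh2, of mitochondria, had no peak.

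Hif1a encodes the oxygen-regulated subunit of the factor that induces many glycolytic genes. Its peak chr12:73907592-73907910 held 12 fragments over 1.98, a fold of 4.37 (2.42 to 7.38), 153 bp before the start site. Its other annotated start site was 6.38 kb before the summit, so that the peak lies in intron 1 of that longer transcript. In all, 4 of the 15 bound genes (Pfkm, Idh3g, Mdh1 and Mdh2) had their summit in the window of a second protein-coding gene, where the peak cannot be assigned to one gene, and 11 did not. Among bound coding genes 25.6% shared a summit.

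The 5 summits that lay before the nearest start site are shown because their letters can be compared with the motif of YY1 and with those of other promoter factors. Each window holds the summit and 50 bases to each side, on the strand of the gene in GRCm38, and capitals mark CGCATGCG (NRF1), CCGGAA (ETS factors), GGGCGG (GC box), CCAAT and TGACGTCA (cAMP element) on either strand. They lie at chr19:41911836-41911936 (plus strand), chr9:59656246-59656346 (plus), chrX:73786914-73787014 (minus), chr11:6291456-6291556 (plus) and chr12:73907701-73907801 (plus).
Pgam1: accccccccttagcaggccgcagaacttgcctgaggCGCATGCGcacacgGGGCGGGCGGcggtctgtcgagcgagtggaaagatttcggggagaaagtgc
Pkm: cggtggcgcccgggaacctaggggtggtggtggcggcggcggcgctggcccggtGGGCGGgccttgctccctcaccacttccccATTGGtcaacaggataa
Idh3g: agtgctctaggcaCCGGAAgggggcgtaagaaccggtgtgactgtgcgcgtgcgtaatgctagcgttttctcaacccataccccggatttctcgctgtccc
Ogdh: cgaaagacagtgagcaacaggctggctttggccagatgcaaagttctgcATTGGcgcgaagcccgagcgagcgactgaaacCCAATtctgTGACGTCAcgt
Hif1a: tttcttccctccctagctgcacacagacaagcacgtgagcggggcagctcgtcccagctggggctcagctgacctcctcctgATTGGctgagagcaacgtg

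None of these 5 windows held ATGGC. The longer YY1 motif, AANATGGC on either strand, lay within 100 bp of the summit at 1 of the 15 bound genes, Idh3g, and at 8.10% of all bound coding genes. The core ATGGC lay there at 3 (Pfkl, Idh3g and Sucla2), and at 30.8% of the 3584 summits of bound coding genes. CCAAT lay within 100 bp of 5 summits (Slc2a1, Pkm, Ogdh, Suclg1 and Hif1a) and of 16.8% of the 3584 summits, GGGCGG of 8 and 65.7%, TGACGTCA of 2 (Ogdh and Mdh2) and 2.40%, CCGGAA of 2 and 23.2%, and CGCATGCG of 1 and 4.05%. These words were chosen after values had been seen, and the matches describe the letters only.

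AANATGGC occurred within 300 bp of a start site in 10 of the 45 genes, of which 3 were bound and 7 were not. Among all protein-coding genes the motif was as close in 15.0%, with 21.7% of the bound and 13.5% of those not bound, and 27.1% of the genes with it were bound. The 3 sites of the bound genes are shown first, on the strand of the motif, which stands in capitals. They lie at chrX:73787009-73787038 (minus strand), chr11:6292569-6292598 (plus) and chr15:98108451-98108480 (minus).
Idh3g: ttcccctccccAAGATGGCggaacagtgct
Ogdh: tgtaagatcagAAAATGGCggcgttaagca
Pfkm: tctacaggccgAAAATGGCaaggaggctcc
Only the site of Idh3g was in the peak, 60 bp from the summit, and it directly precedes the start site of Ssr4. The site of Ogdh is 22 bp before another of its start sites, at position 6292605 and outside the peak. The site of Pfkm is at its start site at position 98108466, also outside the peak.

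In 4 of the 7 genes with the motif and no peak, its ATG is the annotated start codon of the protein. The sites are printed to show this shared arrangement, at chr2:130284402-130284431 (minus strand), chr7:46847606-46847635 (plus), chr14:8172917-8172946 (minus) and chr6:95718760-95718789 (minus), with the motif in capitals.
Idh3b: ttcctcggccgAACATGGCagcgctgagca
Ldha: attcaaagtccAAGATGGCaaccctcaagg
Pdhb: aggacacgggcAAGATGGCggtggtggctg
Suclg2: ggttcctggttAAGATGGCgtccccggtgg
The other 3 genes were Dlst, Eno1 and Hk1. None of the 3 bound genes had the motif on its start codon. Across all protein-coding genes, 30.5% of the 714 with the motif on a start codon within 300 bp of a start site were bound, and 26.2% of the 2587 with it elsewhere in that range.

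The fixed promoters of RefSeq (GRCm38, 250 bases before to 50 after each start site) covered 43 of the 45 genes, all but Idh3a and Slc2a4. AANATGGC stood in 4 of them (Idh3g, Ogdh and Pfkm, bound, and Idh3b, not bound), and in 7.59% of all coding genes there. ACGTG, the core of the hypoxia element to which HIF1 binds, stood on either strand in 20 of the 43 (46.5%), against 23.6% of all coding genes and 31.9% of bound coding genes. It was in 9 of the 15 bound genes, Hif1a, Idh3g, Mdh1, Ogdh, Pfkm, Pgam1, Pkm, Slc16a1 and Slc2a1. It was also in 11 of the 28 others, Aldoa, Aldoc, Gapdh, Hk1, Hk2, Ldha, Pdhb, Pdk2, Pdk3, Pgk1 and Slc16a3. The letters are short, and part of these matches are the E-box CACGTG, which stood in 6 of the 43 (14.0%, against 9.18% of all coding genes). ACGTG also contains a CpG, and 75.6% of the set have a CpG-rich start site, against 49.2% of coding genes. The part of base composition in these shares was not tested. Within 100 bp of the summit, ACGTG lay at 5 of the 15 bound genes and at 19.9% of the 3584 summits. Other words searched in the same promoters were the core ATGGC, in 44.2% of the 43 and 42.8% of all coding genes, GGGCGG, in 67.4% and 51.0%, CCGGAA, in 25.6% and 21.5%, and CGCATGCG, in 4.65% and 2.89%.

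The 30 genes without a peak had their nearest YY1 summit at a median of 77.2 kb, from 10.3 kb at Eno3 to 2206 kb at Pgk1. For all coding genes without a peak the median was 150 kb (149.9 kb), and 101 kb for those with a CpG-rich start site. None of the 30 genes had a summit within 10 kb, which 4.61% of coding genes without a peak had, and 12 had one within 50 kb (40%, against 24.3%). Of the 30 nearest summits, 26 were in the promoter window of another protein-coding gene. Most summits of the list lay in such a window, since 3584 of the 4681 were those of bound coding genes. That of Eno3, the muscle enolase, was at Slc25a11 and Rnf167, and that of Ldha was at Hps5 and Gtf2h1. That of Cs, 31.0 kb away, was at Coq10a. None of the 30 genes had a summit anywhere in its body, and the share of all coding genes without a peak that had one was not counted. Gene density differs between regions, and its part in these distances was not tested.

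**Figure D4:**
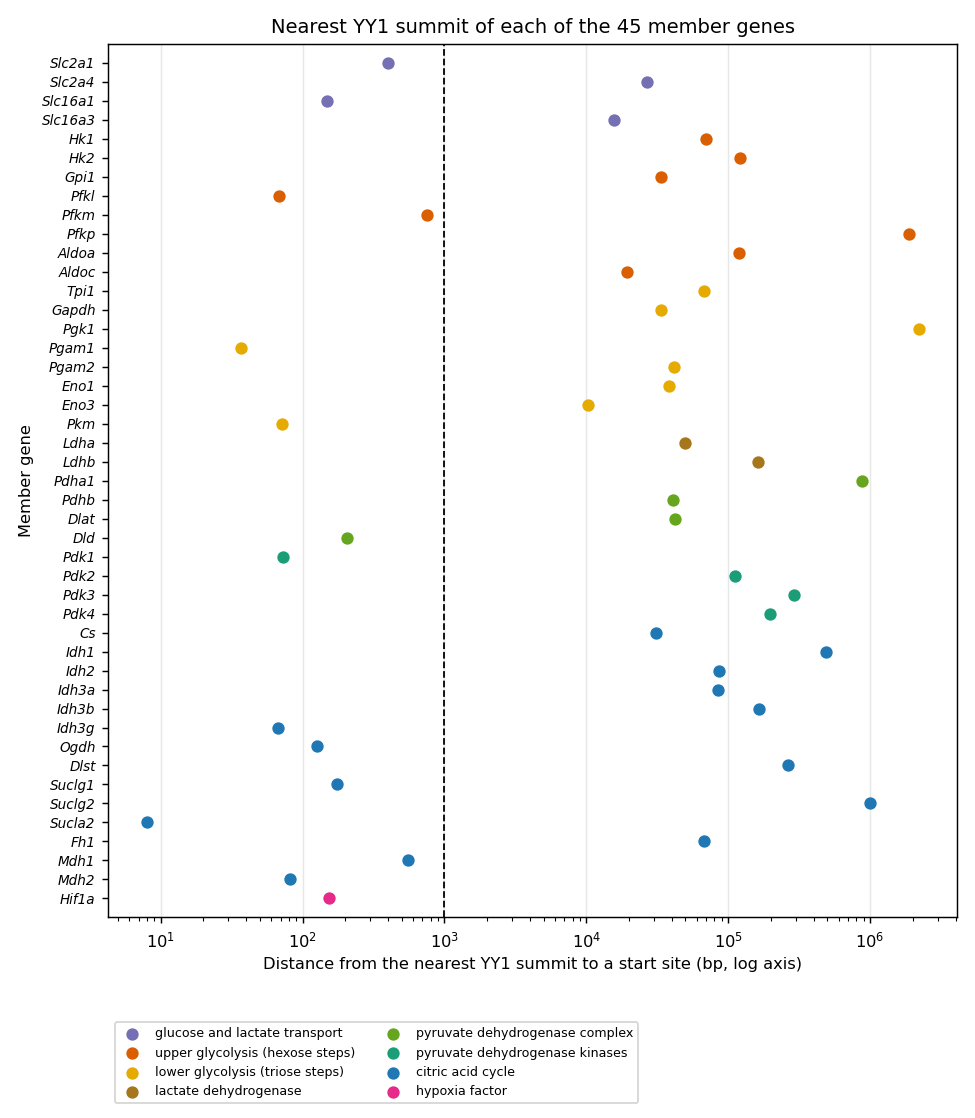
Distance in bp, on a log axis, between each of the 45 genes' start sites and the nearest YY1 summit, 1 point per gene, coloured by role; the dashed line marks 1000 bp. The 15 bound genes lie left of the line and end at 753 bp, and the others begin at 10.3 kb (Eno3), with no gene between.

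Another 56 genes of glucose and pyruvate metabolism, which hold further isozymes, regulators and partners of the set, were looked up in the same way. Of these, 14 were bound (25.0%) and 42 were not, and 31 had a CpG-rich start site, of which 12 were bound (38.7%). Among all coding genes these shares were 18.8% and 36.2%. The median of their fold enrichment was 4.34, close to that of the 15 genes above. Of 8 genes of pyruvate entry and pyruvate dehydrogenase, 6 of them with a CpG-rich start site, YY1 bound 4. Both genes of the pyruvate carrier were bound, Mpc1 (5.04-fold, 134 bp before the start site) and Mpc2 (3.53-fold, 188 bp after it). Pdhx, a binding subunit of the pyruvate dehydrogenase complex (3.71-fold), and Pdpr, the regulatory subunit of its phosphatase (5.13-fold), were bound as well. Around the cycle, YY1 bound 4 of 13 further genes, 9 of them with a CpG-rich start site. Among the 4 were Aco1, the cytoplasmic aconitase (4.03-fold), and the transaminase gene Got2 (4.34-fold). Sdha (3.53-fold) was the only bound gene of the succinate dehydrogenase subunits. The summits of Mpc2, Pdhx and Sdha were shared with Dcaf6, Apip and Ccdc127, and that of Pfkfb2 with Gm29427. The start sites of Apip and Gm29427 were nearer to the summit than those of Pdhx and Pfkfb2.

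Of 12 regulators of glycolysis and gluconeogenesis, 5 of them with a CpG-rich start site, YY1 bound 3. These were Pfkfb2 (5.13-fold) and Pfkfb3 (5.52-fold), whose enzymes set the level of the main activator of phosphofructokinase, and Adpgk (4.80-fold), an ADP-dependent glucokinase. Of 10 hypoxia and metabolic regulators, 8 of them with a CpG-rich start site, 2 were bound, Egln2, an oxygen-sensing prolyl hydroxylase (4.03-fold), and Myc (4.02-fold). Of 13 further isozymes and transporters only Slc2a8 was bound (4.34-fold), and 3 of those 13 had a CpG-rich start site. None of these small counts was tested against the shares of 18.8% and 36.2% above.

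With a q-value limit of 0.05, 18.4% of all protein-coding genes and 14 of the 45 genes were bound, without Sucla2. At a fold of at least 5, 11.1% of all protein-coding genes were bound, and 7 of the 45 genes remained, namely Pfkm, Pgam1, Pkm, Pdk1, Ogdh, Mdh1 and Mdh2.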

How the data were processed

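Reads were aligned by the authors to mm10 (bowtie2), redundant ones were dropped, and MACS2 listed peaks below a p-value of 0.0001 (versions not given in the sources used here). The deposited fold enrichment is the ratio, at the summit, of fragments plus 1 to local background plus 1, and −log10 values of p-value and q-value were deposited beside it. The authors' integer score was not used. Fragments and background were recovered from fold and p-value to within 0.001 of −log10 p for 100% of the peaks. The depth follows from the most frequent background, the narrowest peak (215 bp) and the mouse genome size that MACS2 uses. A deeper library would let weaker sites pass the same limit. Summits were placed against GENCODE basic release M21 for GRCm38, nuclear chromosomes only. The genes named are all members of the set and bound genes of the 56-gene list, of which 1 is not reported here. The genes, lists and rules were chosen with earlier results of these data known. Placement, recovery, motif and repeat searches were tested on simulated data. The tools were scipy 1.17.1, numpy 2.4.6, pysam 0.24.0, pandas 2.3.3 and matplotlib 3.10.9 under Python 3.11.15. The background library was not analysed on its own here.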

Additional observations from a re-analysis of the deposited data

How the results depend on the processing

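No paired analysis was possible because each antibody has 1 library, so none could be left out. The count of bound genes (15) became 9 with a window of 1000 bp before to 100 bp after the start site, which lost Dld, Mdh1, Pfkm, Slc16a1, Slc2a1 and Suclg1, and 7 at a fold of at least 5. It stayed between 11 and 15 with windows of 500, 2000 and 5000 bp, q-value limits of 0.05 and 0.01, 1 start site per gene, coding transcripts only and placement by overlap. At a fold of at least 5 the further genes bound numbered 5, not 14. The share of coding genes bound (18.8%) was 17.7%, 19.3% and 20.4% with windows of 500, 2000 and 5000 bp, 14.6% with the narrow window, 17.4% at q below 0.01 and with 1 start site, 11.1% at a fold of at least 5 and 36.2% among CpG-rich start sites. The median distance was 81 bp with the 500 bp window and 162 bp with 1 start site. The median fold was 4.29 with the 500 bp window, 5.05 at q below 0.01 and 5.04 with 1 start site. With the lowest background of the list used for every peak, an alternative chosen after seeing the data, it was 5.92, against 6.31 for bound coding genes, and Sucla2 came to 5.52. Genes with the motif near the summit numbered 0 within 50 bp and 3 with the core alone, and 0 of the flanking windows at 2000 bp held it. Apart from that change of background, these changes follow from which peaks, windows or letters were counted.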
